A study of Mus musculus with 12 samples.

Results

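The 43 genes described here encode proteins of podosomes and of the actin cytoskeleton that builds them. They were taken from a named list and matched by gene symbol to the 54532 Ensembl mouse genes of the table of expression values. All 43 passed the filter of at least 1 FPKM (fragments per kilobase of gene, scaled per library) in at least 3 of the 12 libraries, as did 11335 genes in all. The rule uses no measured difference, though the list was chosen with earlier results of these data known, and 41 members reached 1 FPKM in all 12 libraries. Fscn1 and Rhou reached it in 9.

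RNA sequencing was done on bone-marrow-derived macrophages of WT mice and on osteoclasts grown from such macrophages. The 12 libraries formed 4 groups of 3: untreated macrophages, macrophages with LPS, untreated osteoclasts and osteoclasts with LPS. All cells were kept in CMG, a source of the macrophage growth factor M-CSF, and the osteoclasts also received RANKL, given as 100 ng/mL in the sample source and as a range in the protocol. LPS (lipopolysaccharide, a component of the bacterial outer membrane that signals through Toll-like receptor 4) was added on day 5 at 100 ng/mL for 3 h, so the LPS-treated osteoclasts carry both agents. The labels do not say that the 3 libraries of a group came from separate mice or cultures, so p-values measure the spread between these libraries, which may be technical. Mouse age and sex are not given in the labels.

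A podosome is a short-lived adhesion made by macrophages, osteoclasts and dendritic cells, in which a core of branched actin is surrounded by a ring of integrins and plaque proteins. Branched filaments grow from the Arp2/3 complex, which is switched on by nucleation-promoting factors such as WASP, and these in turn answer to the small GTPases Cdc42 and Rac. In an osteoclast on bone, podosomes pack into a belt or sealing zone that encloses the area being resorbed, and the kinase Src is needed for this.

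Between 15651770 and 20281456 reads per library were assigned to genes. All 10 osteoclast markers (such as Ctsk and Acp5, a protease and a phosphatase of resorbing osteoclasts) were higher in the osteoclast libraries, and 9 of 10 macrophage markers were lower there, with Cd68 the exception. The 8 stromal markers summed to between 67.5 and 89.8 FPKM in untreated macrophages and to between 0.426 and 1.04 in untreated osteoclasts, and mitochondrial genes held 1.5% to 1.62% of the reads in the former and 5.37% to 5.9% in the latter. The 5 megakaryocyte and platelet markers summed to between 598 and 686 FPKM in untreated and to between 856 and 929.7 FPKM in LPS-treated macrophages, against 8.24 to 10.3 FPKM in untreated and 11.4 to 19.6 FPKM in LPS-treated osteoclasts. Nearly all of this was Pf4 (622 FPKM on average in untreated macrophages), while Gp9 and Itga2b did not reach 1 FPKM in any library. Gp1bb was at 0 in every library, but its exons overlap those of Sept5 and Gm49601 on the same strand, so this may not reflect its level. The 8 neutrophil markers summed to between 4.46 and 12.7 FPKM in macrophage and to between 0.305 and 1.76 FPKM in osteoclast libraries. The part of these cell types in the results was not tested. Lymphocyte markers summed to at most 0.281 FPKM in any library.

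The regions upstream of Fscn1, Zyx and Src are shown because these genes are among the 5 members that rose with LPS in macrophages under every scaling used, and because they differ in the motifs they hold. Each sequence is the 250 bases before a start of the gene in RefSeq on GRCm38.p6, read 5′ to 3′ on the plus strand. The windows are at chr5:142960105-142960354 for Fscn1, chr6:42349578-42349827 for Zyx and chr2:157424043-157424292 for Src. In another annotation, GENCODE M21, Src begins at base 157418444 and Zyx at base 42349630. By that annotation the Src window and most of the Zyx window lie inside the gene. Which start these cells use was not tested. Capitals mark the motifs found.
Fscn1: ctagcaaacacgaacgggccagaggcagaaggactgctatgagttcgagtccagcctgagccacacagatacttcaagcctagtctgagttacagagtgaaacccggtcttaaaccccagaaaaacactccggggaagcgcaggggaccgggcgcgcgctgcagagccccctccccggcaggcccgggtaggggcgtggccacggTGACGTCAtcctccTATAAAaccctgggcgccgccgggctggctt
Zyx: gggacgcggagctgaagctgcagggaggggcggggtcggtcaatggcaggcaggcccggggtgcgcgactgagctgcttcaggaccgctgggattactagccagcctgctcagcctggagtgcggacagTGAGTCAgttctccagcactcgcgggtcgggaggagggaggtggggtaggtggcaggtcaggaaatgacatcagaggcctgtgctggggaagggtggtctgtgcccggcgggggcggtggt
Src: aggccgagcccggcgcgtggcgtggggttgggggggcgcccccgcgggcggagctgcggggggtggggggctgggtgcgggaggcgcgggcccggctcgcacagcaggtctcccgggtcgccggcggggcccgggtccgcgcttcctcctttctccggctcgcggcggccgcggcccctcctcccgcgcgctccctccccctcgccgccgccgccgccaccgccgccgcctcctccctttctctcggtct

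The windows were searched on both strands for 5 motifs: the CRE (TGACGTCA), the AP-1 site (TGANTCA), the TATA box (TATAAA), the kappaB site and the CArG box. Fscn1 held a CRE at bases -45 to -38 from the start and a TATA box at -31 to -26, which do not overlap. A CRE stood in 1.55% and a TATA box in 12.4% of all 32851 such RefSeq windows. Zyx held an AP-1 site at -121 to -115, present in 6.75% of all windows. Among the other members a TATA box was found upstream of Cdc42 and Vav3, and an AP-1 site upstream of Actn4 and Vav3. The windows of Src, Cd44 and Rhou held none of the 5, and the Src window was 82.8% G and C, against 62.4% for Fscn1. A kappaB site, present in 3.90% of all windows, was found upstream of Flna, Vav3 and Wasl among the 36 members in the RefSeq table, and a CArG box, present in 1.47%, upstream of Arpc4, Myo1e and Vcl. These are matches of letters, and no binding was measured.

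**Figure D1:**
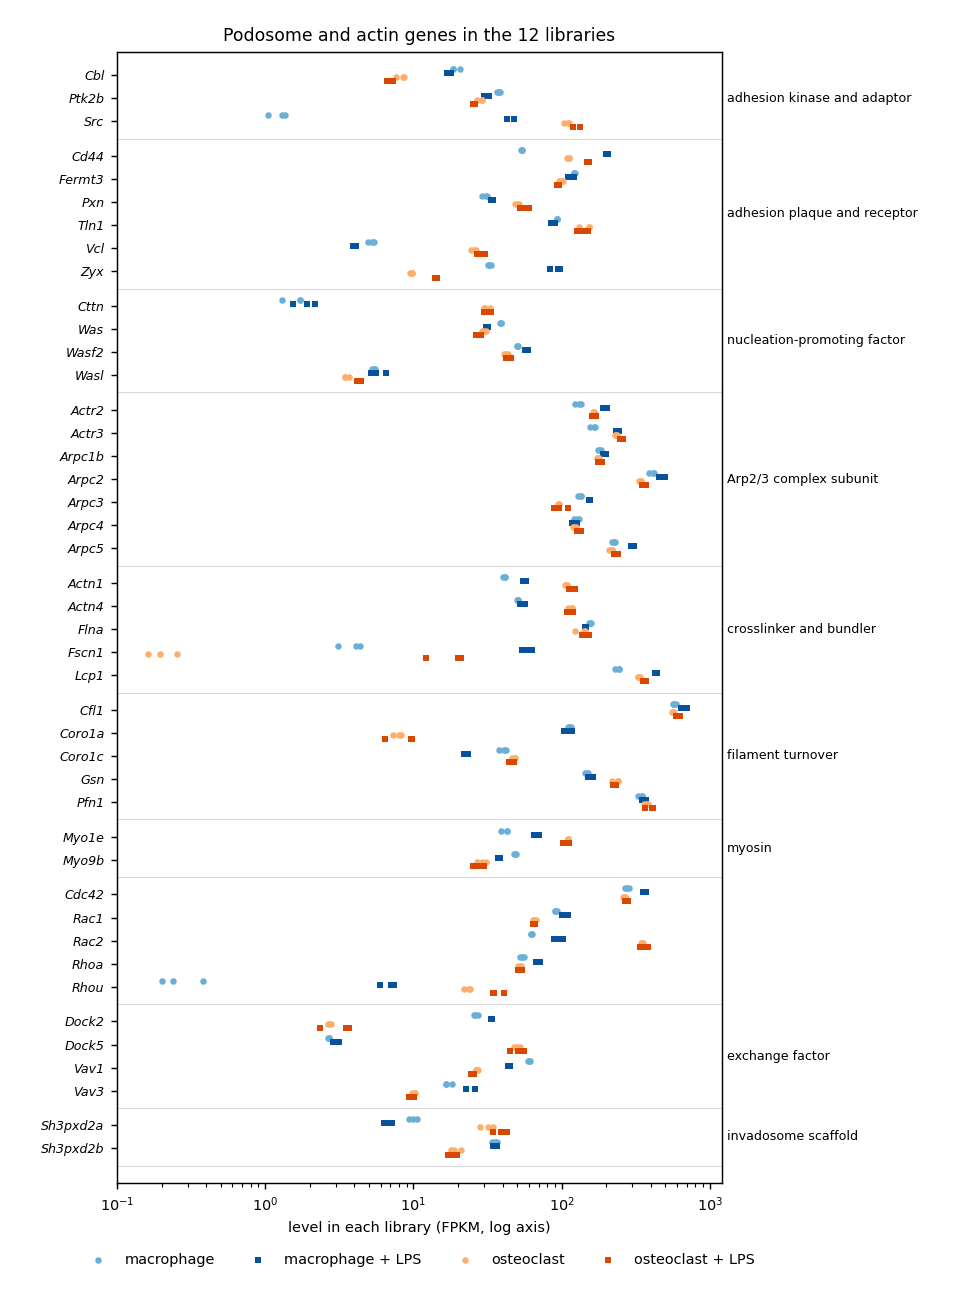
Level of each of the 43 members in each of the 12 libraries (FPKM, log axis), grouped by role, with the role named beside all groups but 1; each point is a library, with circles for untreated and squares for LPS-treated cells. Most members lie above 10 FPKM in every group, while Src, Rhou, Fscn1, Cttn and Dock5 lie below 5 FPKM in untreated macrophages and Fscn1, Dock2 and Wasl in untreated osteoclasts.

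Untreated osteoclasts were first compared with untreated macrophages. Large differences were seen in Src, Rhou, Dock5, Cttn and Rac2, higher in osteoclasts, and in Coro1a, Dock2 and Fscn1, lower there. Differences are given on the log2(FPKM + 1) scale with their standard error (SE), from limma, and adjusted p is limma's two-sided p after Benjamini-Hochberg adjustment over the 11335 genes. Of the 43 members 37 passed an adjusted p of 0.05, 19 higher and 18 lower, beside 77.8% of all genes tested (38.8% higher and 39.0% lower). In 38 members no library of one group lay within the range of the other, beside 81.4% of all genes. A difference of at least 1 was seen in 17 members, beside 27.7% of all genes, and the median member stood at -0.05 beside 0.00 for all genes.

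The split between higher and lower depended on the scaling. The deposited values appear to be scaled to the typical gene, which is inferred from them. When each library was instead divided by its own FPKM sum (called TPM below), 14 members were higher and 26 lower, beside 24.5% and 57.1% of all genes. With quantile normalization 15 were higher and 25 lower, beside 40.4% and 38.1%. The TPM scaling moved the median of all genes by -0.33. The 14 members higher and 18 lower under all 3 scalings are described as such, and for the other 5 (Coro1c, Pfn1, Actr2, Lcp1 and Actr3) the values under the other scalings are given. How many of all genes were called in the same direction under all 3 scalings was not counted. Here and below such counts therefore have no share of all genes beside them. In these bulk libraries fewer cells of a type and less RNA per cell cannot be told apart.

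Among the kinases and adaptors of the plaque, Src was higher and Ptk2b and Cbl were lower in osteoclasts. Src, the tyrosine kinase without which osteoclasts do not resorb bone, stood at 1.3, 1.05 and 1.35 FPKM in untreated macrophages and at 104, 112 and 110.5 FPKM in untreated osteoclasts. The groups were far apart, with means in an 88.2-fold ratio, and the difference was 5.62 (SE 0.07, limma adjusted p = 1.05e-14). Ptk2b (Pyk2), the focal adhesion kinase of these cells that works with Src, had means of 37.5 ± 0.927 and 28.4 ± 1.28 FPKM (SD, n = 3 in each group, as for every mean below). Cbl, a ubiquitin ligase and adaptor downstream of Src, had means of 19.3 ± 1.19 and 8.29 ± 0.595 FPKM, a difference of -1.13.

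Of the 6 plaque proteins and receptors, 4 were higher in osteoclasts (Vcl, Cd44, Pxn and Tln1) and 2 lower (Zyx and Fermt3). Vcl (vinculin), which links talin to actin in the podosome ring, stood at 5.4, 4.94 and 5.24 FPKM in macrophages and at 24.4, 25.5 and 26.4 FPKM in osteoclasts. Every osteoclast library was above every macrophage library, by 2.09 (SE 0.05, limma adjusted p = 4.61e-12). Cd44, the hyaluronan receptor found in the podosome core, rose from 53.8 ± 0.441 to 111 ± 1.66 FPKM. Pxn (paxillin), a scaffold for kinases in the plaque, was 0.70 higher and Tln1 (talin-1), which activates integrins, 0.63 higher. Zyx (zyxin), a partner of Ena/VASP proteins in adhesions, went the other way, with 31.7, 33.4 and 32.2 FPKM in macrophages against 9.8, 9.77 and 9.54 FPKM in osteoclasts, a difference of -1.64 (SE 0.05). Fermt3 (kindlin-3), the blood-cell kindlin that activates integrins with talin, differed by -0.28. Zyx and Fscn1 are also expressed by stromal cells. The stromal markers Acta2 and Col1a1 averaged 45.8 and 19.9 FPKM in untreated macrophages and 0.347 and 0.066 FPKM in untreated osteoclasts, and the part of such cells in the lower values was not tested.

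Of the 4 nucleation-promoting factors only Cttn was higher in osteoclasts. Cttn (cortactin), which stabilizes Arp2/3 branches and is a Src substrate, stood at 1.73, 1.71 and 1.3 FPKM in macrophages and at 30.2, 33 and 29.9 FPKM in osteoclasts. The groups did not overlap and the means were in a 19.6-fold ratio (difference 3.64, SE 0.09, limma adjusted p = 4.01e-12). Was (WASP), the blood-cell activator of Arp2/3 required for podosome cores, differed by -0.36, with means of 38.7 and 30.0 FPKM. Wasf2 (WAVE2), which acts below Rac, differed by -0.25, and Wasl (N-WASP), the ubiquitous relative of WASP, by -0.50.

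The 7 subunits of the Arp2/3 complex did not move as a block. Their FPKM summed to between 1315.7 and 1396.4 in the untreated macrophage libraries and to between 1338.7 and 1360.3 in the untreated osteoclast libraries, which overlap. The actin-related subunits Actr2 (Arp2) and Actr3 (Arp3) were 0.34 and 0.52 higher, with -0.08 and 0.10 under TPM and -0.07 and 0.12 with quantile normalization. Arpc2 and Arpc3, subunits of the complex's frame, had differences of -0.26 and -0.47 and were lower under both other scalings too. Arpc1b, Arpc4 and Arpc5 had differences of -0.03, -0.05 and -0.06 that did not pass the test, and of -0.44, -0.46 and -0.47 under TPM and -0.43, -0.44 and -0.43 with quantile normalization, which did.

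Both alpha-actinins, which cross-link filaments, were higher in osteoclasts. Actn1 rose from 41.1 ± 0.641 to 107 ± 1.17 FPKM (difference 1.36, SE 0.04) and Actn4 from 50.5 ± 0.675 to 115 ± 3.95 FPKM (difference 1.17, SE 0.05). Lcp1 (L-plastin), the leukocyte bundler, was 0.47 higher, but 0.05 under TPM and 0.07 with quantile normalization, which did not pass. Flna (filamin A), which joins filaments into a mesh, differed by -0.19. Fscn1 (fascin), which packs filaments into tight bundles and is typical of dendritic cells, stood at 4.33, 4.08 and 3.1 FPKM in macrophages and at 0.162, 0.255 and 0.195 FPKM in osteoclasts, where 32 reads were recovered over the 3 libraries. The groups did not overlap, and the difference was -2.0 (SE 0.16, limma adjusted p = 2.42e-07), or -3.69 with a pseudocount of 0.1.

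Among the proteins of filament turnover Coro1a stood out. Coro1a (coronin-1A), the leukocyte coronin that binds filaments and Arp2/3, stood at 110.5, 115 and 112 FPKM in macrophages and at 8.27, 7.34 and 8.01 FPKM in osteoclasts. The means were in a 14.3-fold ratio, and the difference was -3.68 (SE 0.12, limma adjusted p = 3.34e-11). Gsn (gelsolin), which severs and caps filaments and is needed for podosomes in osteoclasts, was 0.65 higher, from 148 ± 3.59 to 233 ± 11.6 FPKM. Coro1c, the widely expressed coronin, was 0.24 higher but -0.17 under TPM and 0.01 with quantile normalization, and Pfn1 (profilin-1), which feeds monomers to growing ends, was 0.13 higher but -0.29 under TPM and -0.22 with quantile normalization. The Pfn1 call was also lost without library 1 or 2 of either group (limma adjusted p between 0.0582 and 0.137). Cfl1 (cofilin-1), the severing protein with the highest level of all members, had means of 576 and 563 FPKM and did not pass the test. Its difference of -0.03 became -0.45 under TPM and -0.58 with quantile normalization, both of which passed.

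Of the 2 myosins Myo1e, a membrane-bound myosin of podosomes, rose from 41.6 ± 2.38 to 110 ± 0.187 FPKM (difference 1.38, SE 0.05). Myo9b, a myosin found in leukocytes, differed by -0.73.

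Rac2 and Rac1 went opposite ways. Rac2, the blood-cell Rac, stood at 61.9, 62.9 and 62.5 FPKM in macrophages and at 343, 347 and 353 FPKM in osteoclasts, while Rac1, the ubiquitous Rac, had means of 91.5 ± 1.85 and 65.7 ± 1.83 FPKM. The Rac2 difference was 2.46 (SE 0.06, limma adjusted p = 1.83e-12) and that of Rac1 -0.47 (SE 0.04, limma adjusted p = 3.09e-07). Rhou, an atypical Cdc42 relative that takes part in adhesion turnover, stood at 0.238, 0.38 and 0.201 FPKM in macrophages, from 72 reads in all, and at 22, 24.2 and 23.6 FPKM in osteoclasts. No library of either group came near the other, and the difference was 4.25 (SE 0.09), or 6.43 with limma-voom on recovered reads. Cdc42 and Rhoa, which drive the podosome core and contractility, had differences of -0.07 and -0.06 that did not pass.

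The exchange factors, which load GTP onto Rac and its relatives, were split 1 higher and 3 lower. Dock5, a Rac activator that osteoclasts need for the sealing zone, stood at 2.71, 2.65 and 2.68 FPKM in macrophages and at 47.7, 50.3 and 52.5 FPKM in osteoclasts. Dock2, the leukocyte Rac activator, stood at 25.7, 27.1 and 25.9 FPKM in macrophages and at 2.79, 2.66 and 2.69 FPKM in osteoclasts. The groups were apart in both genes, in opposite directions, by 3.80 (SE 0.07) for Dock5 and by -2.87 (SE 0.10) for Dock2. Vav1 and Vav3, which couple receptor kinases to Rac, differed by -1.14 and -0.70, with Vav1 at means of 60.3 and 26.8 FPKM and Vav3, the form known for its role in osteoclasts, at 17.1 and 10.1 FPKM.

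The 2 invadosome scaffolds also went opposite ways. Sh3pxd2a (Tks5), a Src substrate that recruits proteases and actin regulators, stood at 9.97, 10.5 and 9.36 FPKM in macrophages and at 28, 31.8 and 34.6 FPKM in osteoclasts. Its relative Sh3pxd2b (Tks4) stood at 36.5, 35.6 and 33.8 FPKM in macrophages and at 17.9, 18.7 and 20.9 FPKM in osteoclasts. Neither pair of groups overlapped, and the differences were 1.56 (SE 0.09) and -0.85 (SE 0.06).

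**Figure D2:**
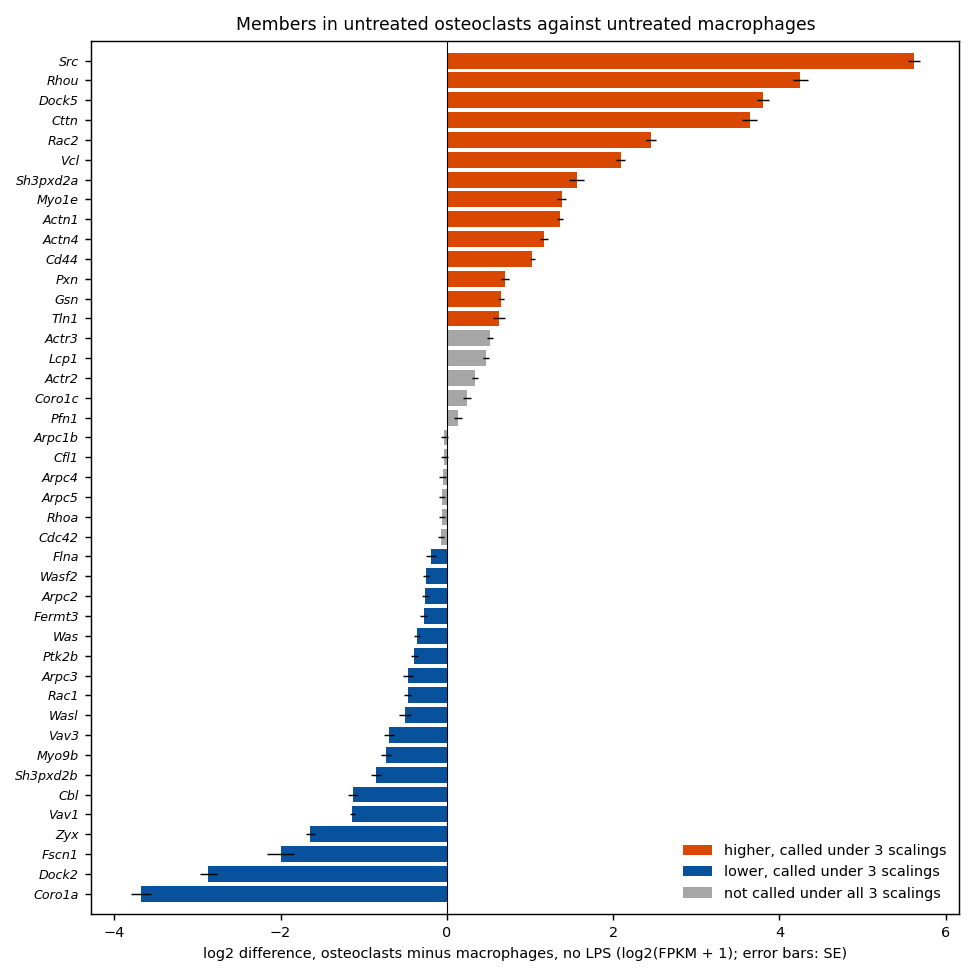
Difference of each of the 43 members between untreated osteoclasts and untreated macrophages (x axis, log2(FPKM + 1) scale; bars, estimate from 3 libraries a group; error bars, SE), with colour for members called in the same direction under all 3 scalings. The members run from Coro1a at -3.68 to Src at 5.62, and the grey members lie between -0.07 and 0.52.

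Because FPKM is a level per length, relatives can be set side by side within a library, and a share of a pair is left as it is by a single factor per library, as in TPM, though not by quantile normalization. Rac2 made up 40.6% ± 0.471 of the summed Rac1 and Rac2 FPKM in untreated macrophages and 84.1% ± 0.508 in untreated osteoclasts. Dock5 went from 9.27% ± 0.318 to 94.9% ± 0.341 of Dock2 plus Dock5. Coro1c went from 26.4% ± 0.682 to 85.9% ± 1.01 of Coro1a plus Coro1c. In these pairs the gene with the smaller share in macrophages had the larger share in osteoclasts. Sh3pxd2b fell the other way, from 78% ± 0.705 to 37.9% ± 0.999 of its pair, as Sh3pxd2a took the larger share. Vav3 held 22.1% ± 0.736 and 27.5% ± 0.89 of Vav1 plus Vav3, Actn4 55.1% ± 0.688 and 51.8% ± 0.866 of Actn1 plus Actn4, and Wasl 12.3% ± 0.414 and 10.6% ± 0.173 of Was plus Wasl, so these pairs kept their leading gene. With 3 libraries a group these shares are given without a test. They depend on the exon lengths used, which merge all transcripts of a gene (9664 bases for Coro1c and 2783 for Coro1a). Exons of Daglb on the other strand overlap 51.4% of the Rac1 exon length, so the Rac2 share is uncertain to that extent.

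**Figure D3:**
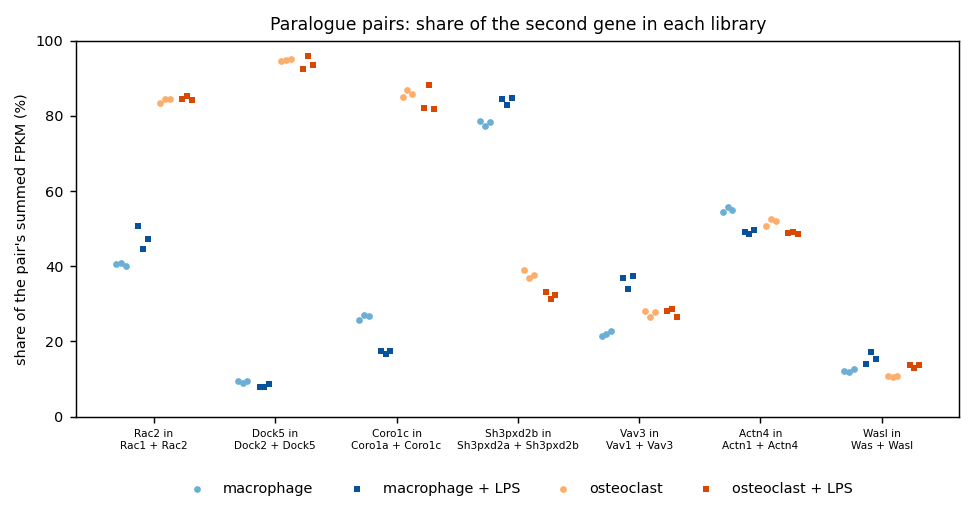
Share of the second gene of each of 7 pairs of relatives in the pair's summed FPKM (y axis, %), a point per library in the 4 groups. Between untreated cells the larger share passes from Rac1, Dock2, Coro1a and Sh3pxd2b in macrophages to Rac2, Dock5, Coro1c and Sh3pxd2a in osteoclasts, and stays with Vav1 and Was, while LPS-treated macrophage library 1 has 50.6% Rac2.

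With LPS in both cell types the order between osteoclasts and macrophages was kept for most members. Of the 43, 40 passed the test, 15 higher and 25 lower in osteoclasts, beside 83.9% of all genes (40.9% higher and 43.0% lower), and in 40 the groups did not overlap, beside 83.6%. Under TPM 18 were higher and 20 lower, beside 45.9% and 37.9% of all genes, and with quantile normalization 23 and 14, beside 45.8% and 38.2%. A difference of at least 1 was seen in 15 members, beside 36.6% of all genes. Dock5 (3.69), Cttn (3.5), Vcl (2.55), Sh3pxd2a (2.36), Rhou (2.27) and Rac2 (1.91) had the highest differences, and Coro1a (-3.54), Dock2 (-3.07) and Zyx (-2.61) the lowest. All 9 kept their side under both other scalings. Src was 1.41 higher (SE 0.07), against 5.62 without LPS. Cd44 stood at 206, 201 and 198 FPKM in LPS-treated macrophages and at 149, 153 and 154 FPKM in LPS-treated osteoclasts, a difference of -0.40 that was -0.02 and did not pass with quantile normalization. Without LPS it was the osteoclasts that had more Cd44. The 2 comparisons use different libraries, and the change between them is the difference of LPS effects tested below.

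LPS-treated macrophages were then compared with untreated ones. Src, Fscn1, Rhou, Cd44 and Zyx rose by at least 1.47 on the log2 scale, and the other changes were smaller than 1. Of the 43 members 30 passed the test, 23 higher and 7 lower, or 69.8%, beside 69.9% of all genes (36.8% higher and 33.1% lower), so the number called was that of any genes. The groups did not overlap in 36 members, beside 74.0% of all genes. A difference of at least 1 was seen in 5 members, beside 18.5% of all genes.

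The direction of the smaller changes depended on the scaling. Under TPM 6 members were higher and 32 lower, beside 16.0% and 70.1% of all genes, and with quantile normalization 6 and 31, beside 26.9% and 45.8%. The FPKM sum of a library was between 255852 and 261584 in untreated macrophages and between 399796 and 408994 with LPS, and the TPM scaling moved the median of all genes from 0.02 to -0.49. Of the 30 members called, 5 were higher and 7 lower under all 3 scalings, which was not counted over all genes.

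**Figure D4:**
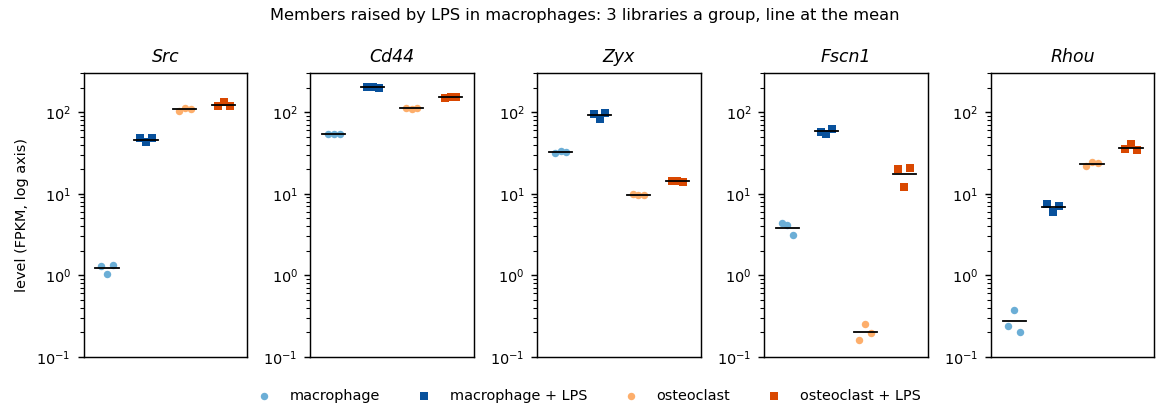
Level of Src, Cd44, Zyx, Fscn1 and Rhou in each library (y axis, FPKM, the same log axis in each panel), with 3 points a group and a line at the mean. In each gene the LPS-treated macrophages lie above the untreated ones, and in Src and Rhou the untreated osteoclasts lie above both.

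The 5 members that rose under all 3 scalings have different roles. Src went from 1.3, 1.05 and 1.35 FPKM to 47.9, 42.6 and 48 FPKM, a 37.5-fold ratio of means. It remained below the untreated osteoclasts, the lowest of which was at 104 FPKM. The difference was 4.40 (SE 0.07, limma adjusted p = 1.3e-13). Fscn1 went from 4.33, 4.08 and 3.1 FPKM to 57.4, 53.9 and 63 FPKM, without overlap, by 3.62 (SE 0.16). The dendritic cell markers Ccr7 and Flt3 stood at most at 0.36 FPKM in any macrophage library. The 8 dendritic markers together summed to between 1.22 and 1.75 FPKM without LPS and to between 6.88 and 7.31 FPKM with it. With LPS most of this was Xcr1, at 5.31 FPKM on average, against 0.15 FPKM without LPS. The part of dendritic cells in the Fscn1 level was not tested. Rhou went from 0.238, 0.38 and 0.201 FPKM to 7.43, 5.99 and 7.05 FPKM, by 2.62 (SE 0.09), or 4.24 with a pseudocount of 0.1, and its 1078 reads with LPS stand against 72 without. Both groups lay below the untreated osteoclasts at 22 FPKM or more.

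Cd44 went from 53.4, 54.3 and 53.7 FPKM to 206, 201 and 198 FPKM, a 3.75-fold ratio of means (difference 1.89, SE 0.03, limma adjusted p = 2.48e-13). The LPS-treated macrophages had the highest Cd44 of the 4 groups. Zyx went from 31.7, 33.4 and 32.2 FPKM to 93.9, 83.2 and 97.9 FPKM (difference 1.47, SE 0.05), again the highest of the 4 groups.

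The 7 members that fell under all 3 scalings were Coro1c (-0.81), Sh3pxd2a (-0.50), Vav1 (-0.43), Myo9b (-0.34), Vcl (-0.30), Was (-0.29) and Ptk2b (-0.25). Coro1c stood at 38.1, 42.3 and 40.9 FPKM without LPS and at 21.9, 23.2 and 23 FPKM with it. The groups were apart, with an SE of 0.05 and a limma adjusted p of 1.99e-08. Vav1 went from 60.3 ± 0.753 to 44.3 ± 0.529 FPKM, Was from 38.7 ± 0.519 to 31.4 ± 0.384 FPKM and Sh3pxd2a from 9.94 ± 0.569 to 6.72 ± 0.453 FPKM. These members include the core activator WASP, a ring protein, a Rac activator and the scaffold that was higher in osteoclasts. As a share of Vav1 plus Vav3 on the deposited scale, Vav3 went from 22.1% ± 0.736 to 36.1% ± 1.92.

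Of the Arp2/3 subunits 6 of 7 were higher with LPS on the deposited scale, beside 36.8% of all genes, but none was higher and 5 were lower under TPM, and none higher and 7 lower with quantile normalization. On the deposited scale their sum went from between 1315.7 and 1396.4 to between 1644.1 and 1730.9 FPKM. Actr2 (0.61) and Actr3 (0.55) had the highest values, which became -0.04 and -0.10 under TPM and -0.29 and -0.30 with quantile normalization. Cdc42 (0.39), Rhoa (0.37), Rac1 (0.20) and Rac2 (0.60) were higher too, but reversed to -0.25, -0.27, -0.44 and -0.04 under TPM. With quantile normalization, which moved the median of all genes from 0.02 to -0.14, these 4 stood at -0.44, -0.33, -0.62 and -0.17. Lcp1 (0.85) and Myo1e (0.69) had the next highest values after the 5 members above, and under TPM they stood at 0.21, which passed, and 0.05, which did not. With quantile normalization they were at 0.05 and 0.03, which did not pass.

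In osteoclasts LPS moved few members, and Fscn1 by far the most. Of the 43, 12 passed the test, 10 higher and 2 lower, or 27.9%, beside 17.7% of all genes (11.1% higher and 6.59% lower), and the groups did not overlap in 20 members, beside 34.0% of all genes. Only Fscn1 differed by at least 1, beside 2.41% of all genes. The count rests on small differences. It was 5 (11.6%, beside 13.4% of all genes) without untreated osteoclast library 2, and 6 of 43 without untreated osteoclast library 1 or 3 or LPS-treated osteoclast library 3 (beside 14.1%, 12.6% and 16.5% of all genes). It was 7 (16.3%) without untreated macrophage library 2 or 3 or LPS-treated macrophage library 3 (beside 15.6%, 16.0% and 16.6%), through the shared estimate of spread, and 4 (9.3%, beside 12.3%) when only the osteoclast groups were fitted. Under other settings it stayed above the share of all genes: 9 (20.9%, beside 13.4%) without LPS-treated osteoclast library 1 and 16 (37.2%, beside 21.3%) with limma-voom. Among genes averaging 5 FPKM or more it was 11 of 42 (26.2%), beside 23.8% of all such genes, a smaller gap than with the main filter. The members' share against that of all genes thus depended on the setting. Under TPM 4 were higher and 5 lower, beside 8.07% and 10.9% of all genes, and with quantile normalization 4 and 9, beside 8.35% and 13.4%.

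Fscn1 stood at 0.162, 0.255 and 0.195 FPKM in untreated osteoclasts and at 19.9, 12.1 and 20.9 FPKM with LPS. The groups were far apart, with 32 reads over the untreated and 2898 over the treated libraries, a difference of 3.92 (SE 0.16, limma adjusted p = 1.43e-08), or 6.38 with limma-voom. LPS-treated osteoclast library 2 was the lowest of its group in Fscn1, and also in Adgre1 (73.1, 42.5 and 70.9 FPKM), a macrophage marker, in Coro1a (9.64, 6.41 and 9.84 FPKM) and in Dock2 (3.68, 2.36 and 3.51 FPKM). Other members lower in osteoclasts were not lowest there, such as Zyx (14.2, 14.4 and 13.9 FPKM), Vav1 (24.6, 25.4 and 25.6 FPKM) and Sh3pxd2b (17, 19.6 and 18.8 FPKM). The 10 macrophage markers together summed to between 2868.3 and 3324.2 FPKM in untreated and to between 2740.0 and 3592.9 FPKM in LPS-treated osteoclast libraries. The 8 dendritic cell markers summed to between 8.21 and 8.44 FPKM in untreated and to between 8.14 and 9.68 FPKM in LPS-treated osteoclast libraries. The part of remaining macrophages or of dendritic cells in the Fscn1 level of osteoclast cultures was not tested. LPS-treated macrophages had 58.1 FPKM of Fscn1 on average and 669.7 FPKM of Adgre1, against 17.6 and 62.2 FPKM in LPS-treated osteoclasts.

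Cd44, Zyx and Rhou also rose under all 3 scalings. Cd44 went from 112, 109 and 112 FPKM to 149, 153 and 154 FPKM, by 0.45 (SE 0.03, limma adjusted p = 8.01e-07). Zyx went from 9.8, 9.77 and 9.54 FPKM to 14.2, 14.4 and 13.9 FPKM, by 0.50 (SE 0.05). Rhou went from 22, 24.2 and 23.6 FPKM to 35, 40.8 and 34.6 FPKM, by 0.64 (SE 0.09). None of the 3 overlapped between the groups. Cbl (-0.22) and Ptk2b (-0.14) fell under all 3 scalings, with limma adjusted p of 0.0263 and 0.0453. The Cbl call was lost without untreated osteoclast library 2 or 3 or LPS-treated osteoclast library 1 or 3 (limma adjusted p between 0.051 and 0.0967). The Ptk2b call was lost without any of these 4, without any untreated macrophage library and without LPS-treated macrophage library 3 (limma adjusted p between 0.0542 and 0.151).

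The remaining 6 calls, Sh3pxd2a (0.29), Wasl (0.22), Pxn (0.19), Lcp1 (0.14), Actn1 (0.13) and Arpc5 (0.12), did not pass under TPM or quantile normalization and were lost on leaving out 8, 10, 4, 2, 10 and 11 of the 12 libraries in turn, and Arpc5 was at -0.02 under the latter. Src, with 104, 112 and 110.5 FPKM without LPS and 120.2, 133 and 119.8 FPKM with it, did not overlap between the groups but missed the threshold (0.19, SE 0.07, limma adjusted p = 0.0722). With limma-voom on recovered reads it passed at an adjusted p of 0.0117. Cttn, Dock5 and Rac2, which untreated osteoclasts also held well above macrophage level, had differences of 0.01, 0.01 and 0.05, none of which passed.

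**Figure D5:**
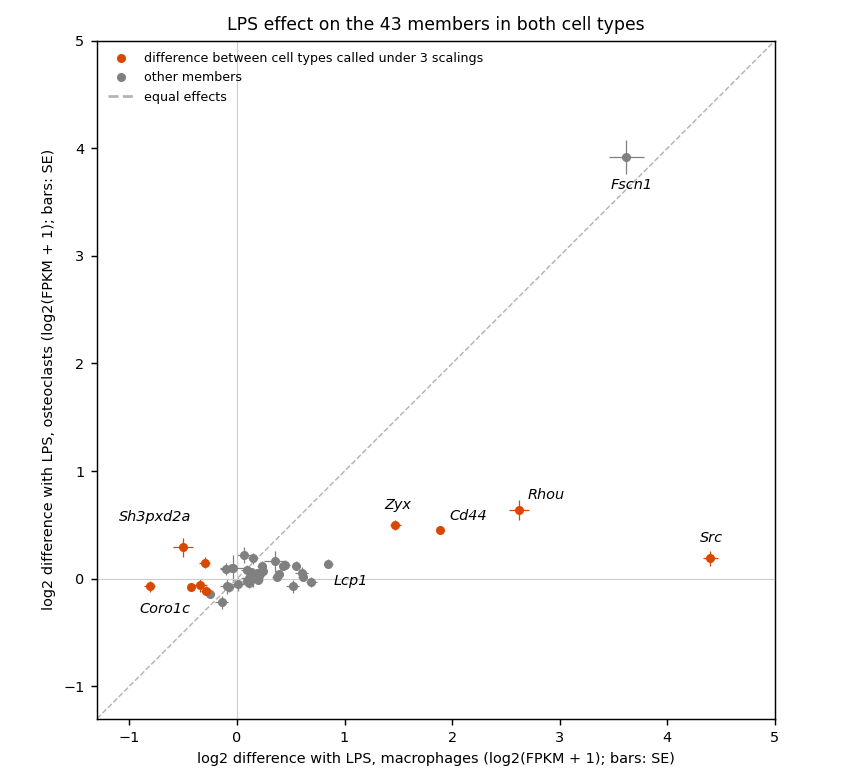
Difference with LPS in macrophages (x axis) and in osteoclasts (y axis) for each of the 43 members, on the log2(FPKM + 1) scale with SE bars; colour marks members whose LPS effects differed between the cell types in the same direction under all 3 scalings, and the dashed line marks equal effects. Src lies at 4.40 and 0.19 and Fscn1 at 3.62 and 3.92, while most members lie near 0 on the y axis.

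The difference between the LPS effects, osteoclasts minus macrophages, was tested as an interaction. It passed in 23 of 43 members, 6 higher and 17 lower in osteoclasts, or 53.5%, beside 56.6% of all genes (26.6% higher and 30.0% lower). A difference of at least 1 was seen in 3 members, beside 15.8% of all genes. Under TPM 32 were higher and 5 lower, beside 63.8% and 14.4% of all genes, and with quantile normalization 30 and 6, beside 36.1% and 24.1%, while TPM moved the median of all genes from -0.01 to 0.45. The effect was lower in osteoclasts under all 3 scalings for Src (-4.21, SE 0.09, limma adjusted p = 2.31e-11), Rhou (-1.98, SE 0.12), Cd44 (-1.44, SE 0.04) and Zyx (-0.97, SE 0.08). For Rhou it was -3.58 with a pseudocount of 0.1 and -3.99 with limma-voom. It was higher for Sh3pxd2a (0.80), Coro1c (0.73), Vcl (0.45), Vav1 (0.35), Myo9b (0.28) and Was (0.19). These 6 are members that fell in macrophages, and in osteoclasts Sh3pxd2a was the only 1 of them whose LPS difference passed the test.

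Fscn1 was the exception among the 5 members raised in macrophages. Its effects of 3.62 and 3.92 gave a difference of 0.30 (SE 0.23, limma adjusted p = 0.298). The ratio of means was 15.1-fold in macrophages and 86.4-fold in osteoclasts, and the pseudocount of 1 holds down the latter because untreated osteoclasts were at 0.204 FPKM on average. With a pseudocount of 0.1 the difference was 1.94, under TPM 0.79 and with limma-voom 2.45, all of which passed, while with quantile normalization it was 0.50 and did not. The sign was the same in each.

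A further list of 159 podosome and actin genes was counted, of which 145 passed the filter. Between untreated cells 133 of the 145 passed the test, 58 higher and 75 lower in osteoclasts, and with LPS 140, 45 higher and 95 lower. With LPS 118 passed in macrophages, 82 higher and 36 lower, and 48 in osteoclasts, 35 higher and 13 lower. The interaction passed in 104, 32 higher and 72 lower in osteoclasts. In this order 91.7%, 96.6%, 81.4%, 33.1% and 71.7% of the 145 were called, beside 77.8%, 83.9%, 69.9%, 17.7% and 56.6% of all genes. Under TPM the splits into higher and lower were 41 and 95, 45 and 85, 36 and 91, 22 and 19, and 82 and 33, beside 24.5% and 57.1%, 45.9% and 37.9%, 16.0% and 70.1%, 8.07% and 10.9%, and 63.8% and 14.4% of all genes. With quantile normalization they were 50 and 81, 51 and 82, 52 and 70, 22 and 25, and 59 and 45, beside 40.4% and 38.1%, 45.8% and 38.2%, 26.9% and 45.8%, 8.35% and 13.4%, and 36.1% and 24.1% of all genes.

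Among these genes the highest in osteoclasts were Myo1d, Scin and Pstpip1. Myo1d, a single-headed membrane myosin, averaged 121 ± 5.69 FPKM in untreated osteoclasts and 0.393 ± 0.0483 in untreated macrophages (difference 6.45, SE 0.06). Scin (scinderin), a severing protein related to gelsolin, stood at 81, 82 and 81.9 FPKM against 5 reads in all in untreated macrophages. Pstpip1, an adaptor that binds WASP, averaged 195 ± 5.29 against 14.4 ± 0.219 FPKM. These 3 were highest again with LPS. Evl (-3.56), an Ena/VASP protein, Myl9 (-3.37), a myosin light chain of contractile cells, and Iqgap2 (-3.35), a Rac and Cdc42 scaffold, were lowest. Myl9 was at -5.95 with a pseudocount of 0.1. It is typical of the stromal and smooth muscle cells whose markers were in the macrophage libraries, and that part was not tested. With LPS the lowest were Lpxn (-3.86), a paxillin relative, Iqgap2 (-3.84) and Lsp1 (-3.49), an actin-binding protein of leukocytes.

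LPS in macrophages gave the highest differences in Rnd1, Rnd3 and Pstpip2. Rnd1 and Rnd3 are relatives of each other that stay bound to GTP. Rnd1 went from 0.291, 0.215 and 0.0908 FPKM to 176, 153 and 180.1 FPKM, from 41 to 20982 reads. Rnd3 went from 1.51 ± 0.18 to 88.9 ± 4.24 FPKM and Pstpip2, a membrane-bending adaptor that restrains osteoclasts, from 11 ± 0.2 to 113 ± 6.64 FPKM. The lowest were Arhgef7 (-2.01), an exchange factor for Rac and Cdc42, Fmnl3 (-1.88), a formin, and Wipf1 (-1.79), the partner that stabilizes WASP. Wipf1 went from 30.3 ± 0.329 to 8.07 ± 0.625 FPKM in the cells in which Was itself fell by 0.29 on the log2 scale. In osteoclasts LPS gave the highest differences in Rnd1 (1.98), Nck1 (0.85), an adaptor for WASP proteins, and Rhof (0.75), a filopodial GTPase, and the lowest in Lpxn (-0.96), Fgd4 (-0.40), a Cdc42 exchange factor, and Elmo2 (-0.38), a partner of Dock proteins. Fgd4 reached 1 FPKM in only 3 libraries, the untreated macrophages, and averaged 0.666 and 0.265 FPKM in osteoclasts without and with LPS, where its difference was -1.09 with a pseudocount of 0.1 and -1.34 with limma-voom. The LPS effect was lower in osteoclasts for Rnd1 (-5.17), Rnd3 (-4.76) and Pstpip2 (-2.90) and higher for Arhgef7 (1.89), Fhod1 (1.69), a formin, and Wipf1 (1.66). All of these kept their direction and passed under both other scalings.

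The exons of 15 members overlap those of a gene on the other strand. The overlap is over 10% of the exon length in 4: Rac1 with Daglb (51.4%), Vcl with Ap3m1 (25.5%), Cfl1 with Snx32 (19.9%) and Arpc1b with Pdap1 (18.2%). Arpc4 shares 283 bases with Ttll3 on its own strand. Whether counting used the strand is not given in the sources used here, so reads of these genes and their partners cannot be told apart, and values of Rac1 and Vcl above all are uncertain to that extent.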

How the data were processed

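The authors deposited FPKM values for 54532 genes in 12 libraries. Per the submitters' processing notes, fastp, STAR, featureCounts and DESeq2 were used with build mm10, while versions, annotation and strand setting are not given in the sources used here. Gene lengths implied by the steps of the deposited FPKM values matched merged exons of GENCODE M21 for 96.7% of the 25854 genes above 0, and 96.2% of values came out as whole reads (tolerance 0.02). The library denominators departed by at most 5e-05% from median-of-ratios scaling, so the values were taken as relative to the typical gene, which is inferred. Genes with at least 1 FPKM in 3 libraries were fitted with limma 3.58.1 (R 4.3.3, variance trend) on log2(FPKM + 1) over all 4 groups in a single fit. Calls were made at a Benjamini-Hochberg adjusted p of 0.05 over 11335 genes. The fitting script was tested on simulated data. Alternatives were another pseudocount (0.1), no filter, a stricter filter at a mean of 5 FPKM, TPM and quantile rescaling, the compared groups alone, a replicate block, no variance trend, limma-voom on recovered reads and leaving out each library. Every member may be named. Of the other podosome and actin genes, the 3 highest and 3 lowest called per comparison are named, if they averaged 1 FPKM or more over the 12 libraries and the groups compared did not overlap. Members and lists were chosen with earlier results of these data known. Results for one gene family as a whole are not reported here. No protein sequences were used here.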

Additional observations from a re-analysis of the deposited data

Results flagged for a closer look

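The LPS effect differed between osteoclasts and macrophages, by the interaction test in limma at an adjusted p of 0.05, in 23 members. The values are log2 differences of the effects, osteoclasts minus macrophages, and the test is the same one that picked 56.6% of all genes. It was lower in osteoclasts under all 3 scalings for Src (-4.21), Rhou (-1.98), Cd44 (-1.44) and Zyx (-0.97), and higher for Sh3pxd2a (0.80), Coro1c (0.73), Vcl (0.45), Vav1 (0.35), Myo9b (0.28) and Was (0.19). Src, the kinase of the sealing zone, thus had the lowest value of all members.

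For 13 members the difference was lower in osteoclasts on the deposited scale but reversed or lost the call under TPM or quantile normalization. They were Myo1e (-0.72), Lcp1 (-0.71), Vav3 (-0.59), Actr2 (-0.59), Rac2 (-0.55), Actr3 (-0.43), Cdc42 (-0.36), Rhoa (-0.35), Actn1 (-0.32), Arpc5 (-0.31), Rac1 (-0.21), Arpc2 (-0.17) and Wasf2 (-0.15). Of these, 4 are Arp2/3 subunits. The calls of Arpc2 and Wasf2 were also lost on leaving out 8 and 9 of the 12 libraries in turn.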

How the results depend on the processing

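Each of 172 log2 differences (142 called differences of members and 30 of the named other podosome and actin genes) was recomputed under 21 alternatives, 12 of which left out a library. Of 3606 recomputed values 3383 kept their direction and their side of the threshold, 158 lost the call and 65 reversed. All 65 reversals came from the 2 rescalings, 30 under TPM and 35 with quantile normalization, and the called differences of Src, Rhou, Fscn1, Cd44, Zyx, Cttn, Dock5, Coro1a, Vcl and Sh3pxd2a kept their direction in every alternative. Under TPM, the log2 difference with LPS in macrophages reversed for Rac1 (-0.44), Arpc2 (-0.41), Cdc42 (-0.25), Rhoa (-0.27), Arpc5 (-0.22), Actn1 (-0.19), Dock2 (-0.28), Actr2 (-0.04), Actr3 (-0.10), Wasf2 (-0.44), Arpc3 (-0.43), Pxn (-0.48), Arpc1b (-0.52), Rac2 (-0.04), Vav3 (-0.09) and Cfl1 (-0.42). Under TPM, the log2 difference between untreated cell types reversed for Coro1c (-0.17), Pfn1 (-0.29) and Actr2 (-0.08). Under TPM, the log2 difference between LPS-treated cell types reversed for Arpc1b (0.06) and Cfl1 (0.02). Under TPM, the log2 difference in the difference between LPS effects reversed for Rac1 (0.36), Arpc2 (0.41), Cdc42 (0.22), Rhoa (0.22), Arpc5 (0.26), Actn1 (0.24), Actr3 (0.14), Wasf2 (0.42) and Rac2 (0.02). With quantile normalization, the log2 difference with LPS in macrophages reversed for Rac1 (-0.62), Arpc2 (-0.63), Cdc42 (-0.44), Rhoa (-0.33), Arpc5 (-0.34), Actn1 (-0.18), Dock2 (-0.15), Actr2 (-0.29), Actr3 (-0.30), Wasf2 (-0.46), Arpc3 (-0.67), Pxn (-0.37), Arpc1b (-0.76), Rac2 (-0.17) and Cfl1 (-0.77). With quantile normalization, the log2 difference with LPS in osteoclasts reversed for Arpc5 (-0.02). With quantile normalization, the log2 difference between untreated cell types reversed for Pfn1 (-0.22) and Actr2 (-0.07). With quantile normalization, the log2 difference between LPS-treated cell types reversed for Actr2 (0.13), Lcp1 (0.10), Fermt3 (0.07), Arpc1b (0.29), Was (0.11) and Cfl1 (0.22). With quantile normalization, the log2 difference in the difference between LPS effects reversed for Rac1 (0.51), Arpc2 (0.60), Cdc42 (0.31), Rhoa (0.26), Arpc5 (0.32), Actn1 (0.19), Actr2 (0.20), Lcp1 (0.03), Actr3 (0.31), Wasf2 (0.42) and Rac2 (0.13). The cause was not tested, beyond the shift of all genes that each rescaling made.

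Leaving out each library in turn, the members called numbered between 29 and 33 with LPS in macrophages, 36 and 37 between untreated cell types, 38 and 41 between LPS-treated cell types, 21 and 25 in the difference between LPS effects, 5 and 12 with LPS in osteoclasts. The other podosome and actin genes called numbered between 114 and 120 with LPS in macrophages, 132 and 133 between untreated cell types, 136 and 141 between LPS-treated cell types, 99 and 106 in the difference between LPS effects, 36 and 50 with LPS in osteoclasts. All genes called numbered between 7500 and 8012 with LPS in macrophages, 8495 and 8874 between untreated cell types, 9307 and 9488 between LPS-treated cell types, 6049 and 6345 in the difference between LPS effects, 1432 and 2031 with LPS in osteoclasts. The member calls lost in this way were of small differences: Arpc5, Actn1, Wasl, Sh3pxd2a, Ptk2b, Cbl, Pxn and Lcp1 with LPS in osteoclasts, Pxn with LPS in macrophages, Pfn1 between untreated cells, Arpc1b and Arpc4 between LPS-treated cells, and Arpc2 and Wasf2 in the difference between LPS effects. With LPS in osteoclasts the member count was 6 of 43 (beside 6.35% of all genes) without the filter, where more genes are tested, and 4 (9.3%, beside 12.3%) when only the compared groups were fitted, where fewer libraries give the spread. In the difference between LPS effects the member count was 37 (86.0%, beside 78.2% of all genes) under TPM and 36 (83.7%, beside 60.2%) with quantile normalization. When only genes averaging 5 FPKM or more were kept, 6430 genes were tested, among them 42 members. With LPS in macrophages 4851 genes passed (75.4%), beside 71.4% of these members, and with LPS in osteoclasts 1528 (23.8%), beside 26.2%. Between untreated cells 5427 passed (84.4%, beside 85.7% of these members), and between LPS-treated cells 5694 (88.6%, beside 92.9%). In the difference between LPS effects 4018 passed (62.5%, beside 54.8% of these members). Limma-voom on recovered reads called 7948, 2410, 8944, 9418 and 6094 genes in the 5 comparisons (LPS in macrophages, LPS in osteoclasts, untreated cells, LPS-treated cells and the difference between LPS effects) and 32, 16, 37, 42 and 26 members. Equal replicate numbers were not taken as pairs. Same-numbered libraries had correlations of their deviations between -0.07 and 0.104, the others between -0.137 and 0.11. Between untreated and LPS-treated cells of a type, same-numbered libraries stood at 0.104, 0.097 and -0.053 in macrophages and 0.072, 0.083 and 0.029 in osteoclasts. The others there lay between -0.137 and 0.048 and between -0.102 and 0.041. With 3 libraries a group these values cannot settle whether samples were paired. With the replicate number as a block the members called were 31, 8, 37, 40 and 23 in the same order, beside 7914, 1930, 8787, 9512 and 6422 of all genes. The block changed no direction, but with it 4 members with LPS in osteoclasts (Arpc5, Actn1, Wasl and Ptk2b) and Arpc2 in the difference between LPS effects lost their call (adjusted p between 0.0518 and 0.0734). Low levels limit Fscn1 in untreated osteoclasts (32 reads) and Rhou in untreated macrophages (72 reads), whose log2 differences move with the pseudocount, and intervals for these were not computed.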
